A study of Mus musculus with 36 samples.

Results

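The snoRNA host genes described here are 10 long noncoding genes, Gas5, Snhg1, Snhg3, Snhg5, Snhg6, Snhg8, Snhg11, Snhg12, Snhg14 and Snhg20, picked by symbol from the 40205 features counted in each library, and all 10 were present. Small nucleolar RNAs (snoRNAs) are guides for the chemical modification of ribosomal RNA, and most mammalian ones are cut out of the introns of a host transcript. In a noncoding host the spliced exons that remain go to the cytoplasm, where many are quickly removed by nonsense-mediated decay, the pathway that destroys messages with an early stop codon during translation. Gas5, the founding member, was found as a transcript that accumulates when growth stops, and host genes as a group follow ribosome production in dividing cells. The questions were whether the spliced or unspliced host transcripts are as frequent in extracellular vesicles (EVs, membrane particles released into the medium) as in the cells that released them, and whether they move with ethanol.

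The 36 libraries were 18 EV and 18 cell libraries of fetal neural stem cells from the dorsal telencephalon of C57/Bl/6J mice, which by the study's methods all carry the Ai14 allele, a fluorescent reporter that needs Cre recombinase. Tissue of one pregnancy was pooled by fetal sex, which gave 1 female and 1 male neurosphere culture from each of 3 pregnancies (sets 3, 4 and 5, so cultures 3F, 3M, 4F, 4M, 5F and 5M), all grown without serum in medium that keeps them dividing. Each culture was kept for 5 days at 0 (control), 120 or 320 mg/dL ethanol, and each cell library has an EV library from the medium of the same flasks, so that a location holds 6 libraries per dose and 9 per sex. A culture is a pool of several fetuses passaged as free-floating spheres and holds no vessel, blood or nerve supply, and the EV fraction is what ultracentrifugation of filtered medium yields rather than 1 vesicle type.

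Library totals ran from 26.6 to 55.3 M counts in cells and from 0.959 to 5.51 M in EVs, with 6 EV libraries under 2 M, 5 of which came from cultures 3M and 4F. Summed levels of 10 neural stem cell markers were 2717 to 4179 CPM (counts scaled to the size of the library with TMM factors, the unit used for levels throughout) in cells and 823 to 1397 CPM in EVs, and Sox2, a defining stem cell gene, was listed at 0 in every library. A listed 0 does not show that the RNA was absent, since 97.7% of 6907 genes wholly inside another gene were listed at 0 too. Whether Sox2 is such a gene was not tested. Neuron markers summed to 432 to 903 CPM in cells and 205 to 382 CPM in EVs. Most of this was Map2, with a median of 587 CPM in cells beside a summed median of 638 CPM. The next neuron marker in cells, Syt1, had a median of 7.38 CPM. Astrocyte and oligodendrocyte markers summed to 347 to 776 CPM in cells and 223 to 517 CPM in EVs. Microglia markers summed to no more than 0.605 CPM in cells and 11.7 CPM in EVs, and endothelial markers to no more than 2.25 and 20.3 CPM. The part of marker differences in the EV results was not tested. One library was singled out after the levels of the host genes were seen. The cell library of culture 3F at 320 mg/dL was above the other 17 cell libraries for 7 of the 10 host genes and for 2528 of the 17792 genes tested in cells, so the comparisons it enters were also fitted without culture 3F.

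The positions of the host genes are from GENCODE vM39 on GRCm39, the build of the deposited counts. Gas5 lies at chr1:160861793-160866118 on the plus strand, Snhg1 at chr19:8700319-8703812 (plus), Snhg3 at chr4:132075325-132080997 (minus), Snhg5 at chr9:88377321-88405615 (minus) and Snhg6 at chr1:9926809-10014504 (minus). Snhg8 lies at chr3:123301192-123302578 (minus), Snhg11 at chr2:158217558-158228071 (plus), Snhg12 at chr4:132035905-132038762 (plus), Snhg14 at chr7:58957672-59628040 (minus) and Snhg20 at chr11:116966617-116969792 (plus), and all 10 are annotated as lncRNA. Snhg3 and Snhg12 are neighbours on chromosome 4.

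The number of snoRNA genes inside a host differed widely. By the RefSeq gene table Gas5 and Snhg1 hold 8 each, Snhg12 holds 4, Snhg3, Snhg5 and Snhg11 hold 2 each, Snhg6 and Snhg8 hold 1 each, and Snhg14, the long imprinted transcript that runs across the Prader-Willi and Angelman region antisense to Ube3a, holds 206. Snhg20 has a microRNA gene, Mir6516, in place of a snoRNA in this table. The counts are of snoRNA genes that overlap the RefSeq span of the host, on either strand. For Snhg14 the RefSeq and GENCODE extents differ. Its RefSeq start window, chr7:60099896-60099945, lies outside the GENCODE positions given above. All 234 of these snoRNA genes were listed at 0 in all 36 libraries. The same was true of 97.7% of 6907 genes that lie wholly inside another gene, of 97.6% of the 2383 that lie there on the opposite strand only, and of 8.03% of 20950 genes that overlap no other gene. The files therefore show the hosts and not the snoRNAs they release, and reads from a stretch that a host shares with another gene (such as Zbtb37 for Gas5, Mcmdc2 for Snhg6, Ube3a and Snrpn for Snhg14) are uncertain.

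As examples of what the hosts carry, 1 snoRNA of each class is printed from GRCm39. Snord47, a C/D box snoRNA of 77 bases at chr1:160865652-160865728 (plus) inside Gas5, has its C box motif tgatga and its D box motif ctga in capitals. Snora24, an H/ACA box snoRNA of 130 bases at chr3:123301586-123301715 (minus) inside Snhg8, has the ACA triplet near its 3′ end in capitals. Both were listed at 0 in every library.
Snord47: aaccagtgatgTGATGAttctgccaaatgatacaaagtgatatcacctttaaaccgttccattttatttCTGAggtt
Snora24: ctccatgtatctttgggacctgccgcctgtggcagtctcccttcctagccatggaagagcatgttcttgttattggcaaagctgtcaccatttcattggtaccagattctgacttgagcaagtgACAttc

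Many noncoding hosts share a start with the ribosomal protein genes, a C followed by a run of pyrimidines (the 5′ terminal oligopyrimidine tract), which ties translation of an RNA to growth signals. RefSeq start windows were given for 9 of the 10 hosts, with 10 starts in all, and Snhg6 had none. A C within 5 bases of the annotated start followed by at least 4 bases that are C or T, read on the transcribed strand, was present at 4 of the 10 starts, those of Snhg3, Snhg8, Snhg12 and the second start of Gas5, and at 18.3% of all 32851 windows in the table. The lines below show 20 bases before to 30 bases after the start, matched to GRCm39, with the tract in capitals, and Snhg1 stands beside them as a host without a match in this window. They lie at chr1:160862716-160862765 (Gas5, plus), chr4:132080968-132081017 (Snhg3, minus), chr3:123301956-123302005 (Snhg8, minus), chr4:132035969-132036018 (Snhg12, plus) and chr19:8700831-8700880 (Snhg1, plus).
Gas5: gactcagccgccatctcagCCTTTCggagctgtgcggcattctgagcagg
Snhg3: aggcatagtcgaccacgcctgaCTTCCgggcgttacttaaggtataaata
Snhg8: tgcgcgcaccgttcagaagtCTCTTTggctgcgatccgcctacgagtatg
Snhg12: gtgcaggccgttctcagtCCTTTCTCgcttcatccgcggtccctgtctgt
Snhg1: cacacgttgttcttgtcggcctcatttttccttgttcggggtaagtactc

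Gas5, Snhg3, Snhg6 and Snhg14 were less frequent in EVs than in cells, and no host gene was called more frequent in EVs. Snhg6 fell to 0.186 of its cell level, Snhg3 to 0.254, Gas5 to 0.265 and Snhg14 to 0.437, in edgeR's quasi-likelihood test with Benjamini-Hochberg (BH) adjustment over the 15281 genes tested. These 4 of 10 stand beside a background of 42.2% of all tested genes called lower in EVs by the same rule, so the share among the hosts is near that of genes at large. The median log2 fold change over the 10 hosts was -0.51, beside -0.08 over all tested genes. The libraries are bulk RNA, in which fewer cells or vesicles with a transcript and less of it in each cannot be told apart, and the 18 libraries of a location come from 6 cultures.

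Gas5, whose spliced RNA can also bind the glucocorticoid receptor, ran from 111 to 878 CPM in the 18 cell libraries with a median of 209, and from 35.5 to 94.5 CPM in the 18 EV libraries with a median of 63.5. Every EV library was below every cell library. The EV values rest on 21 to 370 counts per library, against 4590 to 22392 in cells. The log2 fold change was -1.92 (SE 0.18, BH-adjusted p = 7.6e-12), and EVs were lower in 18 of 18 pairs of EV and cell libraries. Without culture 3F, whose 320 mg/dL cell library held the value of 878 CPM, the change was -1.70.

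Snhg6, host of Snord87, was the other member whose groups did not overlap. It ran from 34.6 to 285 CPM in cells (median 57.3) and from 4.96 to 17.7 CPM in EVs (median 12.98), the latter from 3 to 69 counts per library. Its log2 fold change was -2.43 (SE 0.22, BH-adjusted p = 1.1e-12), the largest decrease among the 10, and -2.24 without culture 3F. Every EV library lay below every cell library for 14.8% of all tested genes, beside these 2 of the 10 hosts.

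Snhg3, host of the paired H/ACA snoRNAs Snora73a and Snora73b, which act in ribosomal RNA processing, ran from 23.5 to 265 CPM in cells (median 87.4) and from 4.96 to 86.7 CPM in EVs (median 19.1). The groups overlapped, with 8 of the 18 EV libraries inside the range of the cells. Counts per EV library ran from 3 to 178. The log2 fold change was -1.98 (SE 0.35, BH-adjusted p = 3.3e-06), and the mean was lower in EVs in every culture except 5F, where EVs averaged 53.7 CPM and cells 36.7 CPM. Without culture 3F the change was -1.85.

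Snhg14 had the tightest values in cells, 23.4 to 41.7 CPM with a median of 31.4, against 7.37 to 25.4 CPM in EVs with a median of 13.7. Only 2 EV libraries reached the range of the cells, both of culture 4F, and EVs were lower in 18 of 18 pairs. The EV levels come from 6 to 61 counts per library, against 1026 to 2165 in cells. Those of 4F at 120 and 320 mg/dL had 23 and 15 counts, the latter with a TMM factor of 0.382. The log2 fold change was -1.19 (SE 0.12, BH-adjusted p = 2.5e-11), and -1.14 without culture 3F.

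These 4 hosts were called lower under each of the 14 other settings tried, with log2 fold changes between -2.66 and -1.52 for Gas5, between -3.16 and -2.08 for Snhg6, between -2.71 and -1.38 for Snhg3 and between -2.00 and -0.73 for Snhg14. Adding up the counts over the doses of a culture was 1 of these settings. Over the 14 settings (edgeR or DESeq2) the highest BH-adjusted p was 5.9e-06 for Gas5, 2.5e-06 for Snhg6, 0.0053 for Snhg3 and 0.0002 for Snhg14. Of the 4 hosts with a pyrimidine tract at a start, Gas5 and Snhg3 were called and Snhg8 and Snhg12 were not.

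**Figure D1:**
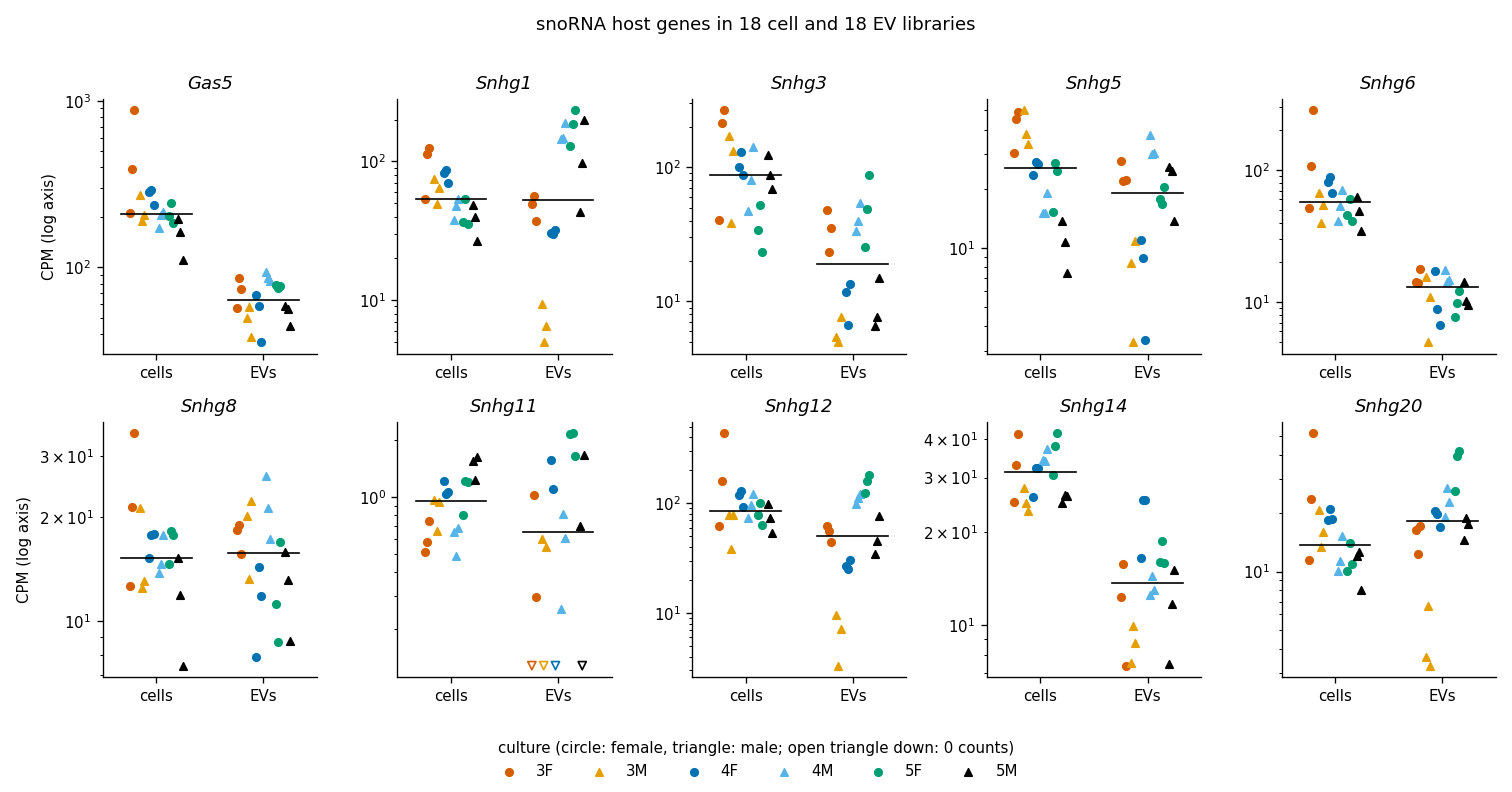
Level of each snoRNA host gene (CPM, log axis) in the 18 cell and 18 EV libraries, one panel per gene, with colour for the culture, circles for female and triangles for male cultures and a black line at the median. Open triangles mark EV libraries with 0 counts of Snhg11. Gas5 and Snhg6 do not overlap between cells and EVs, and Snhg1 and Snhg12 spread widely among the EV libraries.

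The other 6 hosts did not pass the threshold. For Snhg1, Snhg5, Snhg8, Snhg11 and Snhg20 the side of 0 depended on the scale or another setting. Snhg12 stayed below 0 under all 14 alternatives, between -1.37 and -0.06, and only its call changed. When genes were filtered on counts by location, sex and dose in place of location alone, the values of all 10 hosts were lower, and Snhg5 (-0.89), Snhg8 (-0.52) and Snhg12 (-1.09) were then called lower, with Snhg1 at 0.08 and Snhg20 at -0.27. Snhg12, which carries Snora16a, Snora44, Snora61 and Snord99, had a log2 fold change of -0.60 (SE 0.33, BH-adjusted p = 0.092), with medians of 85.0 CPM in cells and 50.3 CPM in EVs. With a replicate block, which pairs the EV and the cell library of the same culture and dose, it passed the threshold, at -0.91 with an adjusted p of 0.020, and without pregnancy set 5 it did so at -1.08 with an adjusted p of 0.035. Without culture 3F its value was -0.30 with an adjusted p of 0.45, and with counts added up over the doses of a culture it was -0.87 with an adjusted p of 0.12. Snhg12 was called in 5 of 14 alternatives, and over them the adjusted p ran from 0.00014 to 0.87.

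Snhg5, a short-lived host of C/D box snoRNAs, had a log2 fold change of -0.42 (SE 0.25, BH-adjusted p = 0.12), and 16 of its 18 EV libraries lay inside the cell range of 7.45 to 50.2 CPM. Snhg8, host of Snora24, had -0.04 (SE 0.16, BH-adjusted p = 0.82), with all 18 EV libraries inside the cell range. Its medians were 15.2 CPM in cells and 15.8 CPM in EVs. Snhg20 had 0.24 (SE 0.22, BH-adjusted p = 0.33), with medians of 13.7 and 18.3 CPM. Without culture 3F the values were -0.33 for Snhg5, 0.02 for Snhg8 and 0.47 for Snhg20, and none was called.

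Snhg1, the host of 8 snoRNAs whose spliced RNA is known for its very short life, had the highest estimate, 0.58 (SE 0.35, BH-adjusted p = 0.12), with nearly equal medians of 53.5 CPM in cells and 52.6 CPM in EVs. Its EV mean was above its cell mean in 3 of 6 cultures, and its result turned on the cultures included. Without pregnancy set 3 the change was 1.25 with an adjusted p of 0.0012, without culture 3F it was 0.87 with an adjusted p of 0.044, and without the EV libraries under 2 M counts it was 1.07 with an adjusted p of 0.0095. Snhg20 also passed without set 3, at 0.85 with an adjusted p of 2.3e-05. Over the 14 alternatives the adjusted p ran from 0.0012 to 0.91 for Snhg1 and from 2.3e-05 to 0.88 for Snhg20.

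Snhg11, a transcript known from neurons, was the rarest host. It had 19 to 81 counts in the cell libraries, 0.484 to 1.64 CPM, and 0 to 7 counts in the EV libraries, where 4 libraries had none. The log2 fold change of -0.10 (SE 0.30, BH-adjusted p = 0.76) rests on a median of 2 counts per EV library and was -0.09 without culture 3F. It was called lower under 2 of 13 alternatives, library totals (-0.92) and no filter on low counts (-0.74). Snhg11 was not tested within EVs.

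**Figure D2:**
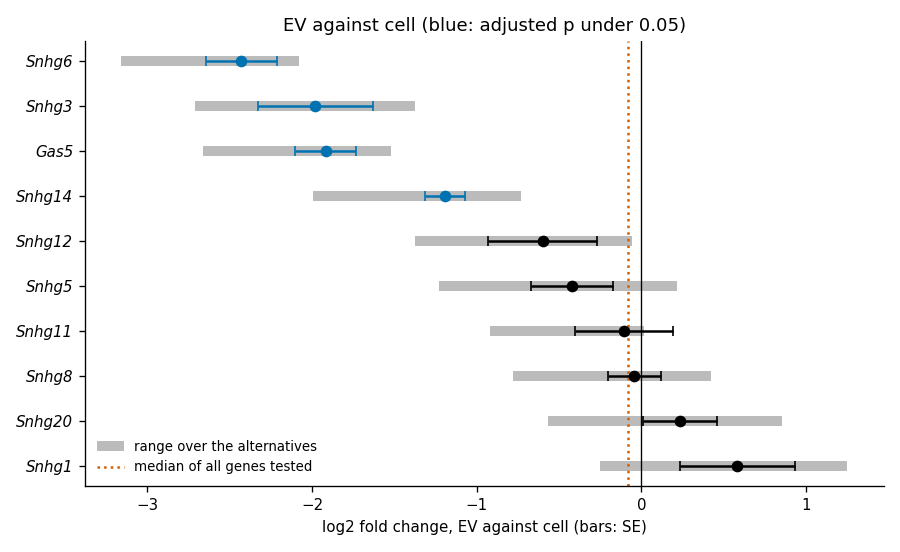
Log2 fold change of each snoRNA host gene between EVs and cells (points, with SE bars), blue where the adjusted p was under 0.05. Grey bands span the alternative settings and the dotted line is the median of all genes tested, -0.08. The bands of Snhg6, Snhg3, Gas5 and Snhg14 stay below 0, as does that of Snhg12, which ends at -0.06. Those of Snhg1, Snhg5, Snhg8, Snhg11 and Snhg20 cross it.

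The EV levels of some hosts differed far more between cultures than those of others. Snhg1 in EVs was 4.96 to 9.33 CPM in the 3 libraries of culture 3M, 29.8 to 32.1 in 4F, 37.2 to 56.1 in 3F, 43.5 to 199 in 5M, 146 to 189 in 4M and 130 to 234 in 5F. The ranges of 3M, 4F and 3F were separate from each other and, 5M aside, from those of the other cultures. The mean of 5F was 26.4 times that of 3M. In cells the culture means of the same gene ran from 38.3 CPM in 5M to 97.7 CPM in 3F, a ratio of 2.55, so that the EV mean divided by the cell mean went from 0.111 in 3M to 4.36 in 5F.

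Snhg12 followed the same order at both ends, from an EV mean of 6.67 CPM in 3M to 156 CPM in 5F, a ratio of 23.4. Its 3 values in 3M were 3.31, 7.07 and 9.63 CPM, and its 3 values in 5F were 125, 161 and 181 CPM. Over the 18 EV libraries the log2 levels of Snhg1 and Snhg12 had a Pearson r of 0.97, the highest of the 45 pairs of hosts there. Snhg20 had an r of 0.86 with each of them, and Snhg3 had 0.84 with Snhg12. These are descriptions over libraries that share cultures, medium and depth.

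Gas5 and Snhg6 in the same EV libraries were steadier, with ratios of the highest to the lowest culture mean of 1.80 and 1.57. Snhg8 came to 1.90, Snhg14 to 2.57, Snhg5 to 4.33 and Snhg3 to 8.95, and Snhg20 went from 4.50 CPM in 3M to 35.97 CPM in 5F. Culture 3M had the lowest EV mean for 7 of the 9 hosts other than Snhg11. Of the 3 EV libraries of 3M only the control held more than 2 M counts (3.35 M), and it had 31 counts of Snhg1 where the 4M control library, with 4.01 M, had 571.

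Differences between cultures took up 93.2% of the variance of log2 Snhg1 over the EV libraries, 94.7% of that of Snhg12, 92.6% of that of Snhg20 and 86.5% of that of Snhg3, beside a median of 56.1% over the 11880 genes tested in EVs. The share was 66.5% for Gas5 and 34.6% for Snhg6. In cells the median over 17792 genes was 73.7%, and Snhg5 (86.9%) and Snhg11 (82.6%) were the 2 hosts above it. The standard deviation of log2 Snhg1 in EVs, 1.73, was above that of 94.8% of the genes tested. Depth varied within a culture: the EV libraries of 3F held 1.12, 4.72 and 4.24 M counts with Snhg1 at 49.1, 56.1 and 37.2 CPM, and those of 3M held 3.35, 0.959 and 1.61 M with Snhg1 at 9.33, 4.96 and 6.53 CPM. Neither the part of depth in these levels nor what else differed between the cultures was tested.

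**Figure D3:**
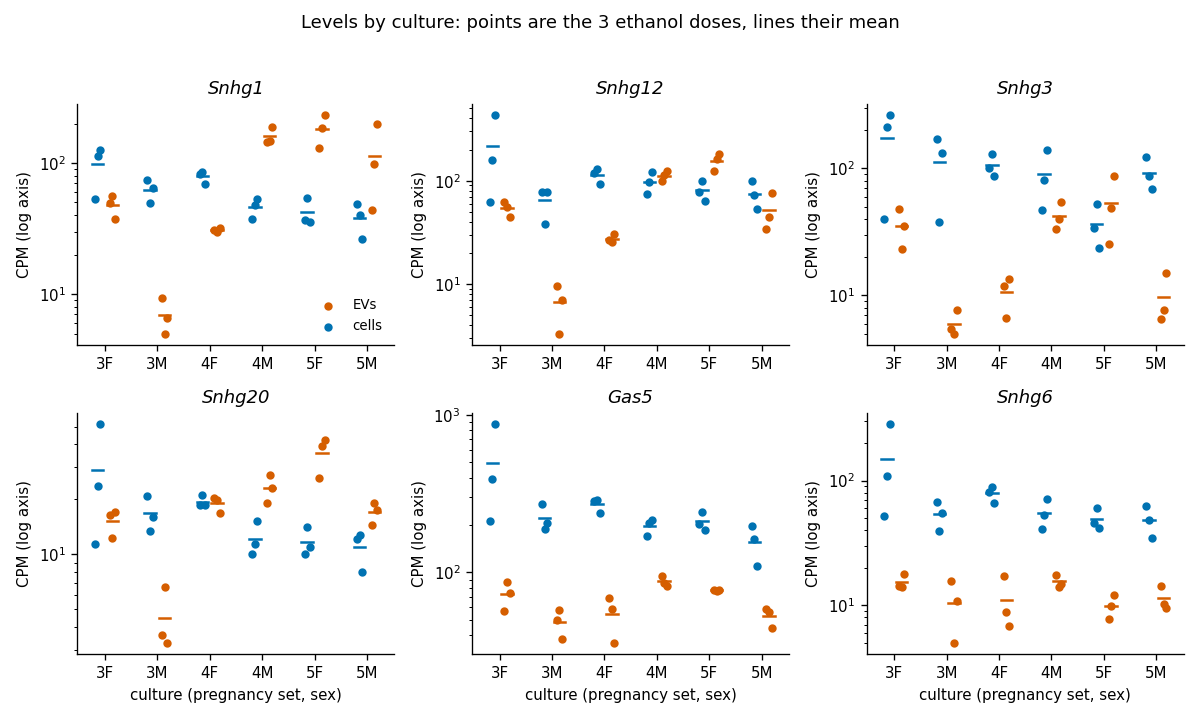
CPM (log axis) by culture for Snhg1, Snhg12, Snhg3, Snhg20, Gas5 and Snhg6, with EVs in orange and cells in blue, points for the 3 ethanol doses and lines for their mean. EV levels of Snhg1 and Snhg12 are lowest in 3M and highest in 5F, while EV levels of Gas5 and Snhg6 vary by less than 2 times between culture means.

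Among the cell libraries the log2 levels of 8 hosts had positive correlations with each other, from 0.34 to 0.96 over 28 pairs. The 9 pairs with Snhg11 were all below 0 (down to -0.38), and the 8 other pairs with Snhg14 ran from 0.01 to 0.64. Without the 3F library at 320 mg/dL the 3 ranges were 0.16 to 0.96, -0.36 to 0.06 and -0.20 to 0.53. Of the 45 pairs, Gas5 and Snhg6 had the highest Pearson r of log2 level, 0.96 over 18 libraries, followed by Snhg6 with Snhg12 (0.95) and Snhg6 with Snhg20 (0.94). The cell library of culture 3F at 320 mg/dL held 4.27 times the median of the other 17 for Gas5, 5.23 times for Snhg6, 5.58 times for Snhg12 and 3.87 times for Snhg20. Snhg14 (1.36 times) and Snhg11 (0.772 times) were inside the range of the others there. In that library the median log2 difference from the others was 1.41 over the 10 hosts, 1.94 over 10 other noncoding hosts and 0.02 over all genes tested. It was 0.94 over 25 coding hosts, 0.40 over 18 snoRNA particle genes and -0.30 over 16 genes of nonsense-mediated decay. The library had the smallest total of the 18 cell libraries, 26.6 M counts. Its TMM factor was 0.960, beside 1.16 to 1.73 in the others. The part of this in the levels was not tested.

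The 3 genes outside the lists whose cell levels were most like the mean of the 10 hosts were Gm36220 (r = 0.98), n-TRtct2, a transfer RNA gene (r = 0.98), and Ndufb1, a subunit of mitochondrial complex I (r = 0.98), among 7923 genes of at least 10 CPM over 18 libraries. Without the 3F library at 320 mg/dL the values were 0.98, 0.96 and 0.95.

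Ethanol moved no host gene past the threshold in cells. At 120 mg/dL none of 10 was called, none had an unadjusted p under 0.05, and the background was 0% of 17792 genes. At 320 mg/dL none was called beside a background of 0.0393%, and 1 had an unadjusted p under 0.05. DESeq2 called none at either dose.

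That gene was Snhg14, which ran from 24.9 to 34.1 CPM in the 6 control libraries and from 23.4 to 41.7 CPM in the 6 libraries at 320 mg/dL, with a log2 fold change of 0.24 (SE 0.09, BH-adjusted p = 0.48) and a higher value in 5 of 6 cultures. The groups overlapped. Gas5 in cells ran from 172 to 283 CPM in controls (median 208), from 162 to 392 at 120 mg/dL (median 224) and from 111 to 878 at 320 mg/dL (median 211). The means, 223, 247 and 305 CPM, climb with the dose while the medians stay close, and Gas5 was higher at 320 mg/dL in 2 of 6 cultures.

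All 10 hosts had a log2 fold change above 0 at 320 mg/dL in cells, between 0.05 and 0.33. Without culture 3F, 8 of the 10 were below 0, Gas5 at -0.24, Snhg1 at -0.15 and Snhg12 at -0.13 among them, and Snhg11 and Snhg14 stayed above 0. For those 8 hosts the sign of the estimate thus changed when 1 culture was left out.

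In EVs ethanol moved none of the 9 hosts tested past the threshold. The background was 0.00842% of 11880 genes at 120 mg/dL and 0.0842% at 320 mg/dL. At 120 mg/dL 2 hosts had an unadjusted p under 0.05 and at 320 mg/dL 1 had, and DESeq2 called none at either dose.

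Snhg3 had the lowest adjusted p. Its 6 control EV libraries ran from 5.42 to 48.1 CPM with a median of 18.6 and its 6 libraries at 320 mg/dL from 7.61 to 86.7 CPM with a median of 25.1. The log2 fold change was 0.69 (SE 0.23, BH-adjusted p = 0.23), with a higher value in 5 of 6 cultures. Snhg14 was higher at 120 mg/dL in 6 of 6 cultures, with control values of 7.49 to 16.5 CPM, values of 9.92 to 25.4 CPM at 120 mg/dL and a log2 fold change of 0.42 (SE 0.19, BH-adjusted p = 0.79). At 320 mg/dL its estimate was 0.21.

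Snhg6 was lower at 120 mg/dL in 5 of 6 cultures, with a log2 fold change of -0.42 (SE 0.19, BH-adjusted p = 0.79), and Snhg5 was lower there in 6 of 6 cultures, with -0.25 (SE 0.18, BH-adjusted p = 0.87). Snhg1 in EVs had medians of 46.3, 76.9 and 113 CPM at 0, 120 and 320 mg/dL, and its estimate at 320 mg/dL was 0.53 (SE 0.26, BH-adjusted p = 0.44). In culture 5M its EV level went from 43.5 to 97.7 and 199 CPM over the doses, while in 3F it went from 49.1 to 56.1 and 37.2 CPM. The cultures thus did not move alike.

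**Figure D4:**
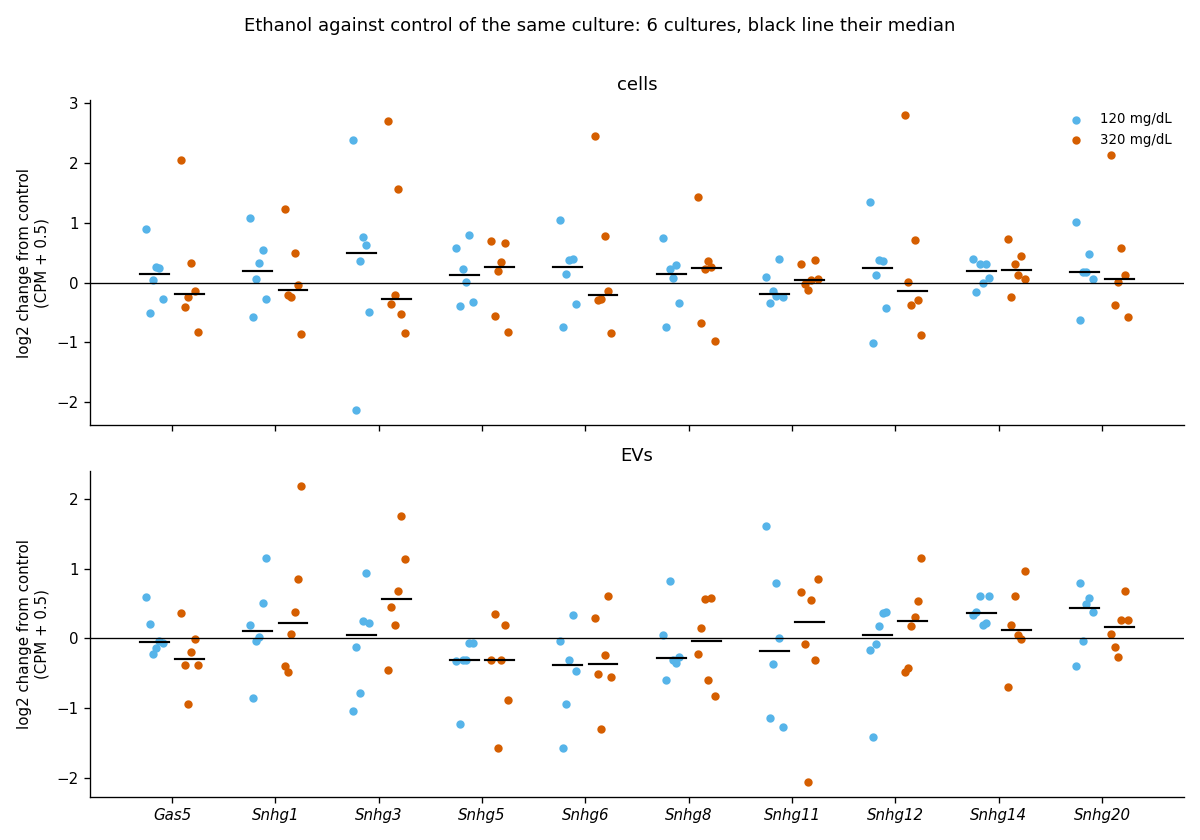
Log2 change of CPM + 0.5 from the control of the same culture, for each snoRNA host gene at 120 mg/dL (light blue) and 320 mg/dL (orange) ethanol, in cells (top) and EVs (bottom), with 6 points for the 6 cultures and a black line at their median. The points lie on both sides of 0 for nearly every gene, and the high orange points in cells for Gas5, Snhg6, Snhg12 and Snhg20 are culture 3F.

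Nor did the EV to cell ratio of any host change with ethanol past the threshold. None of 10 was called at 120 mg/dL beside a background of 0.00534%, or at 320 mg/dL beside a background of 0%, none had an unadjusted p under 0.05, and DESeq2 called none. The interaction estimates ran from -0.64 (Snhg6, SE 0.39) to 0.36 (Snhg11, SE 0.74) at 120 mg/dL and from -0.57 to 0.43 at 320 mg/dL on the log2 scale. The standard errors of this fit were large for Snhg1 (1.15 at 320 mg/dL) and Snhg3 (1.02), since it does not take up the differences in EV to cell ratio between cultures. With a replicate block and a location by culture term they were 0.36 and 0.50, the estimates at 320 mg/dL were 0.40 and 0.17, and again no host was called.

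No host passed the threshold between female and male cultures, beside a background of 5.83% in cells and 11.1% in EVs. In cells 2 of 10 hosts had an unadjusted p under 0.05, Gas5 (log2 fold change 0.67, SE 0.27, BH-adjusted p = 0.15) and Snhg6 (0.70, SE 0.31, BH-adjusted p = 0.20), and 8 of 10 estimates were above 0. Without culture 3F the values were 0.29 (adjusted p = 0.42) for Gas5 and 0.25 (adjusted p = 0.62) for Snhg6. Over 10 alternatives the adjusted p ran from 0.064 to 0.79 for Gas5 and from 0.16 to 0.80 for Snhg6. Gas5 in cells ran from 185 to 878 CPM in the 9 female libraries (median 243) and from 111 to 272 CPM in the 9 male ones (median 196). Without pregnancy set 3, Snhg5 was called higher in female cells, at 0.80 with an adjusted p of 0.036, in a range of 0.036 to 0.98 over 10 alternatives.

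In EVs Snhg14 came closest, with 7.37 to 25.4 CPM in females (median 15.9), 7.49 to 15.02 CPM in males (median 11.7) and a log2 fold change of 0.62 (SE 0.22, BH-adjusted p = 0.068). With a replicate block for the pregnancy, which pairs litter mates, Snhg14 was called higher in females at 0.67 with an adjusted p of 0.0067, and Snhg20 at 0.89 with an adjusted p of 0.0094. Without set 3, Snhg14 was called at 0.68 with an adjusted p of 0.022, and without culture 3F at 0.85 with an adjusted p of 0.0042. Without set 4, Gas5 (0.63, BH-adjusted p = 0.038) and Snhg3 (2.51, BH-adjusted p = 0.0013) were called. Over 11 alternatives the adjusted p ran from 0.0042 to 0.44 for Snhg14, from 0.0094 to 0.76 for Snhg20, from 0.038 to 0.99 for Gas5 and from 0.0013 to 0.99 for Snhg3. A sex has 9 libraries of 3 cultures. When the 3 doses of a culture were added up, edgeR called 0 of 14847 genes in EVs, with 2229 at an unadjusted p under 0.05. DESeq2 called none in cells or EVs, and 1 of the 9 hosts tested in EVs had an unadjusted p under 0.05.

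Other genes of the same pathway were mostly lower in EVs than in cells. Of 10 other noncoding snoRNA hosts tested (Snhg18 was too low), 8 fell and none rose, with a median log2 fold change of -1.47. Snhg9, a short host of very low level, fell by 3.96 (SE 0.47, BH-adjusted p = 1.3e-09), from a median of 3.80 CPM in cells to 0.256 CPM in EVs. Snhg4 fell by 3.16, from 80.6 to 10.6 CPM, and Epb41l4aos by 2.66, from 42.9 to 7.73 CPM. The 2 that were not called, Snhg16 and Dancr, had estimates of 0.28 and 0.24.

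Of 25 coding hosts tested, genes for translation factors and ribosomal proteins that carry snoRNAs in their introns, 15 fell and 5 rose. The translation initiation helicases Eif4a1 and Eif4a2 fell by 2.98 (SE 0.19) and 2.42 (SE 0.17), to EV medians of 31.0 and 37.2 CPM from cell medians of 221 and 167 CPM. Nop56, a host that also encodes a core protein of C/D box particles, fell by 2.07 (SE 0.17). The median over these hosts was -0.58.

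Transcripts of the proteins that build snoRNA particles were also mostly lower in EVs. Of 18 genes tested, 15 fell and 1 rose, with a median of -1.51, and beside Nop56 the assembly factor Naf1 fell by 2.17 (SE 0.13) and the pseudouridine synthase Dkc1 by 2.13 (SE 0.26). The 1 that rose was Pih1d1, a chaperone adaptor, at 1.27 (adjusted p = 2.8e-10), which is named here after its value was seen. All these counts stand beside 42.2% of all tested genes called lower in EVs, and 5861 of 15281 called higher.

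Of 16 genes of nonsense-mediated decay, the pathway that limits spliced host RNAs, 12 were lower and 2 higher in EVs, with a median of -0.58. These counts too stand beside 42.2% of all tested genes called lower and 5861 of 15281 called higher. Magoh, a core protein of the exon junction complex, fell to 0.153 of its cell level and Smg8, a regulator of the kinase Smg1, fell to 0.327. Smg5, an adaptor for RNA degradation, rose by 4.54 (SE 1.09, BH-adjusted p = 0.00028), but its EV values ran from 80.6 to 42425 CPM and its cell values from 30.9 to 1017 CPM. In none of the 4 lists was a gene called with ethanol. Between the sexes, Upf1 was lower in female cells (-0.42, BH-adjusted p = 0.048). In female EVs Upf2 (0.68, BH-adjusted p = 0.013) and Shq1 (0.48, BH-adjusted p = 0.038) were higher and Pih1d1 (-0.65, BH-adjusted p = 0.040) lower. These genes are named after their values were seen. The share of all tested genes called between the sexes was 5.83% in cells and 11.1% in EVs. With the doses of a culture added up, 7 of 20972 genes were called in cells and 0 of 14847 in EVs.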

How the data were processed

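RNA was sequenced from 18 EV and 18 cell samples. The authors trimmed reads with Trimmomatic, aligned them to mm39 with STAR and counted them per gene with HTSeq, and the deposited files hold raw counts per gene, with totals of 0.959 to 55.3 M. The annotation release and the strand setting of the counting are not given in the sources used here. All samples were grouped by their labelled location, sex, pregnancy and dose.

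Counts were tested with edgeR 4.0.16 (quasi-likelihood, TMM, filterByExpr with a minimum count of 10 and a minimum total of 15 by the compared groups, Benjamini-Hochberg adjusted p under 0.05) in R 4.3.3. EV against cell was fitted with sex and dose, ethanol with culture as a block, the EV to cell ratio as a location by dose interaction within pairs, and sex with dose. The fits of EV against cell, of ethanol and of sex in EVs were tried on simulated counts. Those counts held no differences between cultures, so they cannot show how the fits handle such differences. Standard errors are the log2 fold change divided by the root of its F statistic. Alternatives were DESeq2 1.42.0, library totals or median-of-ratios factors as scaling, no filter, other blocks, sums over doses, control libraries alone, thinning to the smallest total, and leaving out a pregnancy. Leaving out culture 3F, leaving out EV libraries under 2 M counts and filtering by location, sex and dose were added after seeing the data.

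Replicate numbers pair the samples, since EV and cell libraries of one number and sex come from the same flasks, doses from the same culture and sexes from the same pregnancy. Deviations from group means had a mean correlation of 0.06 between an EV library and its cell partner, 0.66 between cell libraries of one culture and 0.20 between EV libraries of one culture. The independent units are 6 cultures, whose doses are separate flasks. Reads were deduplicated by the authors, and counts carry counting error that is largest in EVs.

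The members and lists were chosen with earlier results of these data known. From each other list the text names by rule at most the 3 called genes with the largest change between EVs and cells. Gene positions are from GENCODE vM39 on GRCm39. Overlaps and neighbours were read from a RefSeq table, in which 38730 of 40205 features matched by symbol, and start windows from the RefSeq promoter table (GRCm38.p6), each of which matched GRCm39 exactly.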

Additional observations from a re-analysis of the deposited data

Results flagged for a closer look

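In 60 groups of 6 libraries (each host gene at one dose in cells or EVs), a library was marked where its gap to the nearest other was too large a part of the group's range by Dixon's 95% critical value, which chance does in about 1 of 20 groups, and 6 groups were marked. Among cell libraries at 320 mg/dL, culture 3F was marked for Gas5 at 878 CPM (next 238), Snhg6 at 285 CPM (next 71.0), Snhg12 at 435 CPM (next 122) and Snhg20 at 51.8 CPM (next 18.7). Culture 3M was marked for Snhg8 in control cells at 21.2 CPM (next 15.2). Culture 5F was marked for Snhg6 in control EVs at 7.75 CPM, below the next of 14.3. No host had every culture of one group moving against every culture of the other in 60 contrasts of ethanol between sexes or between EVs and cells.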

How the results depend on the processing

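Scaling mattered most for EV against cell: library totals placed the median of all tested genes at -0.88 in place of -0.08, and 9 hosts were then called lower. With no filter 8 were, and with genes filtered by location, sex and dose 7 were, against 4 as reported. DESeq2, on all 40205 features, had a median of 1.73. Of all genes 12302 were called in either direction as reported, 23256 by DESeq2 and 22029 with no filter. Of these calls 52.4% were lower in EVs as reported, 73.0% with library totals and 27.1% with DESeq2. With library totals Snhg20 turned to -0.57. With counts thinned to the smallest total 3 hosts were called higher, Snhg8 turning to 0.42. One host was called higher without culture 3F and 1 without EV libraries under 2 M counts. Leaving out one pregnancy gave 0 to 2 called higher for EV against cell, 0 to 1 for sex in cells and 0 to 2 for sex in EVs, where the replicate block by pregnancy gave 2 and leaving out culture 3F gave 1. The replicate block changed no other call than those named above, and without it no ethanol or ratio call appeared. The causes were not tested. In EVs a host had as few as 2 counts in a library (Snhg11 0), which limits what could be seen.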
